A study of Rattus norvegicus with 6 samples.

Results

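Chromosome 2 of the rat was examined as a distant partner of 1 gene promoter on chromosome 13, which served as the viewpoint of a 4C-seq experiment in cardiac endothelial cells. Its members were all rows of chromosome 2 in the 6 deposited tables, 81098 EcoRI fragments of 759990 outside chromosome 13, or 10.7% of them. The same 81098 rows stood in each table. In build rn5 they span 285 Mb. Per the labels' protocols, 4C-seq fixes chromatin with 2% formaldehyde for 10 min, cuts it with EcoRI and re-ligates it, so that fragments near the viewpoint in the nucleus become joined to it. There were 3 libraries of SS13BN (SS-13BN/Mcwi), a consomic strain with a Brown Norway chromosome 13 on the SS background, and 3 of SS (SS/JrHsdMcwi), the Dahl salt-sensitive strain. All cells were cultured to passage 2, and cells of males and females were pooled. Chromosome 2 thus comes from the SS rat in both strains, and the viewpoint with its own chromosome is what differs. Whether the 3 libraries of each strain stem from different animals or cultures is not stated in the labels. The p-values therefore speak of the spread among libraries, and part or all of it may be technical.

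In a mammalian nucleus each chromosome occupies its own territory, and contacts between chromosomes are sparse compared with those within one. Active, gene-rich stretches of different chromosomes are known to meet more often than gene-poor ones, and stretches of inactive chromatin tend to lie at the nuclear rim. A fragment of another chromosome is caught in few cells, so the measurement on chromosome 2 is whether a fragment was caught at all and how densely caught fragments lie. An annotation of build rn5 was not used here, so regions are given by position and without genes.

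A fragment with at least 1 read is called captured here. Whether reads of every fragment, short or repeated ones included, can be placed on the genome was not tested. A low captured share, or a window called low-contact below, therefore need not mean few contacts. The deposited score of a fragment is the number of captured fragments among 501 neighbouring ones, set against the captured share of the chromosome and divided by its binomial SD. Captured states were solved from the scores and rebuilt 100% of the scores of chromosome 2 in every library. Depth in reads is unknown on this chromosome, and intervals cover counting error only. Chromosome 13 was listed at 0 throughout in SS13BN 3 and SS 3, a feature of the tables that does not touch chromosome 2. The libraries differed in the number of captured fragments. SS13BN 2 captured the most fragments outside chromosome 13, 132426, and SS13BN 3 the fewest, 66610.

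Chromosome 2 had a lower captured share than the other chromosomes together. The captured share of its fragments was 8.66% in SS13BN 1 (95% Wilson interval 8.46% to 8.85%), 15.8% in SS13BN 2 (15.5% to 16.0%) and 7.96% in SS13BN 3 (7.77% to 8.15%). It was 10.9% in SS 1 (10.7% to 11.1%), 8.66% in SS 2 (8.47% to 8.85%) and 10.8% in SS 3 (10.5% to 11.0%). The share of the other chromosomes in the same libraries was 10.1%, 17.6% and 8.86% in SS13BN 1 to 3, and 12.5%, 10.2% and 12.0% in SS 1 to 3. Chromosome 2 was therefore below the rest in every library, at 0.860, 0.894 and 0.898 times their share in SS13BN 1 to 3 and 0.873, 0.853 and 0.894 times in SS 1 to 3. The mean ratio was 0.879 ± 0.0195 (SD, n = 6), with a two-sided exact sign-flip permutation p of 0.031, the smallest that 6 libraries allow. It was the first of 7 comparisons of chromosome 2 with the rest, and the Benjamini-Hochberg adjusted permutation p over them was 0.0365. Chromosome 1, which has 83641 fragments and is nearest in size, had a captured share above that of chromosome 2 in all 6 libraries. The ratio of chromosome 2 to chromosome 1 was 0.880 ± 0.0158 (SD, n = 6; exact permutation p = 0.031, adjusted 0.0365). Among 20 chromosomes, chromosome 2 ranked 4th from the lowest in each of the 6 libraries, above X, 14 and 17 in the mean. Chromosomes X, 14, 15, 17 and 18 were each below the rest in all 6 libraries too. Chromosomes 3, 10 and 16, among others, were above it in all 6. Such agreement among libraries was therefore not particular to chromosome 2.

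**Figure D1:**
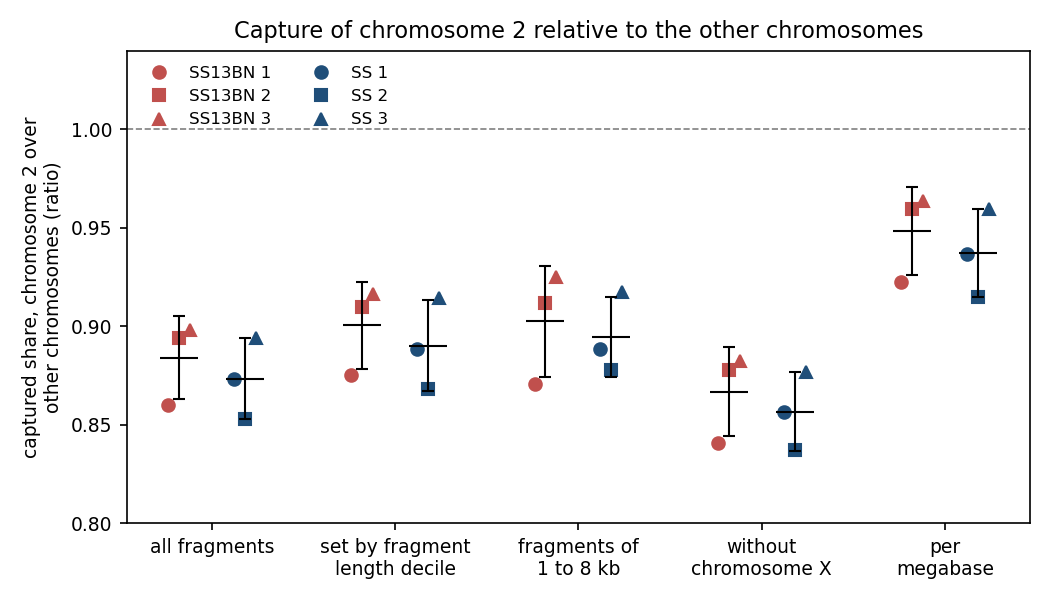
Captured share of chromosome 2 over that of the other chromosomes outside 13 (ratio, y axis, which starts at 0.8) in each library, under 5 ways of counting. Points are libraries, black bars are the mean ± SD of the 3 libraries of a strain, and the dashed line marks equal shares; every point lies below 1, and the strains overlap.

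The difference was also present among fragments of like length. The median EcoRI fragment was 2067 bp on chromosome 2 and 2205 bp on the others. Longer fragments were captured more often up to 16000 bp. On chromosome 2, capture was 3.50% ± 0.650 (SD, n = 6) for fragments of up to 100 bp and 15.0% ± 3.97 for those over 8000 and up to 16000 bp. In these classes the other chromosomes had 3.75% ± 0.544 and 17.4% ± 4.09. Within a class, chromosome 2 was below the others in all 6 libraries for 7 of the 8 classes, and in 5 of 6 libraries for fragments of up to 100 bp. The ratio was lowest, 0.803 ± 0.0432 (SD, n = 6), for the 1188 fragments over 16000 bp. In that longest class mean capture fell again, to 10.5% ± 2.22 on chromosome 2 and 13.1% ± 2.45 on the others (SD, n = 6). With each fragment's expectation set by its length decile, the ratio of chromosome 2 to the rest was 0.895 ± 0.0211 (SD, n = 6), and it was below 1 in 6 of 6 libraries.

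**Figure D2:**
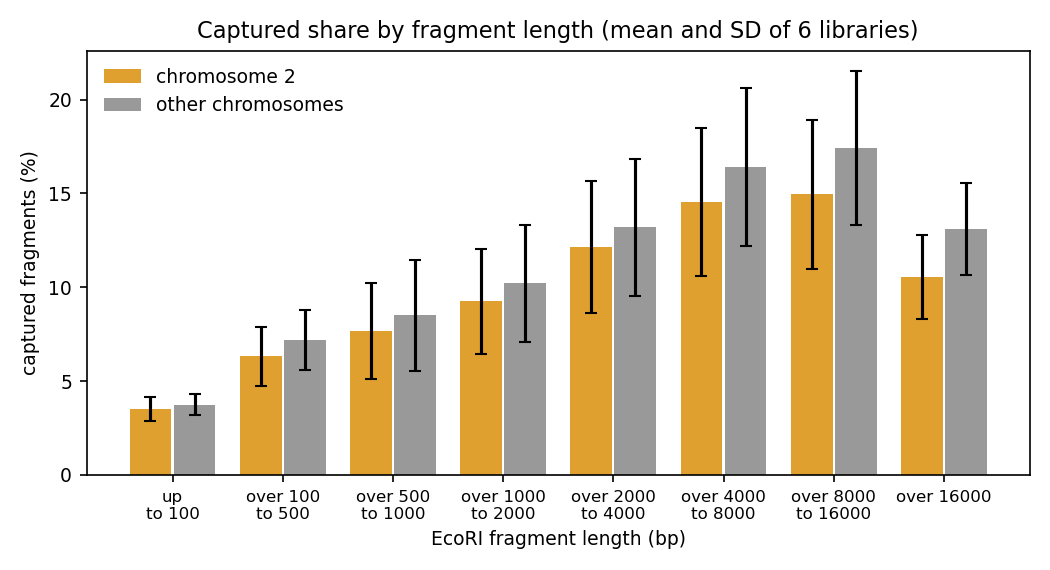
Captured share (%, y axis) by EcoRI fragment length class (bp, x axis), on chromosome 2 and on the other chromosomes outside 13. Bars are means and error bars SDs of 6 libraries; the bar of chromosome 2 is the lower one in each class.

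Most fragments of chromosome 2 were never caught. Of 81098, 52826 (65.1%) were captured in none of the 6 libraries, against 62.7% on the other chromosomes and a background of 63% over both, and 949 (1.17%) were captured in all 6, against 1.52%. Fragments captured in all 6 libraries had a median length of 4148 bp, and those captured in none 1735 bp. The share captured in all 6 over every chromosome but 13 was 1.48%. Few fragments followed the strain. On chromosome 2, 79 fragments (0.0974%) were captured in all 3 SS13BN libraries and no SS library, where the background over all chromosomes was 0.112%. The reverse pattern was held by 53 (0.0654%), with a background of 0.0934%. Both shares lay below their background.

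No 500 kb window of chromosome 2 was a contact window in all 6 libraries. A contact window held more captured fragments than the library's share outside chromosome 13 gives. The call needed a one-sided exact binomial p under 0.05, adjusted over all windows of the library (Benjamini-Hochberg), in each library of a strain. Of 534 windows of chromosome 2, 0 met this in all 3 SS13BN libraries, where the background over 5332 windows was 1.58%. In all 3 SS libraries 2 windows met it, with a background of 1.86%. In all 6 libraries 0 met it, with a background of 0.713%. At an adjusted p under 0.05 in at least 1 library, 42 windows of chromosome 2 (7.87%) passed, against 21.4% of the windows elsewhere. Per library, 2.62%, 3.93% and 0.375% of its windows passed in SS13BN 1 to 3, and 1.5%, 1.31% and 1.87% in SS 1 to 3. On the other chromosomes these were 9.0%, 13% and 3.58% in SS13BN 1 to 3, and 9.67%, 7.46% and 5.75% in SS 1 to 3. The difference was -6.14 ± 2.30 percentage points (SD, n = 6) and negative in all 6 libraries (two-sided exact permutation p = 0.031, adjusted 0.0365). With the expectation set by each chromosome's own share, which removes the low level of chromosome 2, 0 windows were again called in all 6 libraries. Over all chromosomes 22 of 5332 windows (0.413%) were called in that setting. With the expectation set by fragment length, 0 were called as well, with a background of 0.3%. These backgrounds are low, and whether 0 of 534 windows lies below them was not tested.

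The densest window of chromosome 2 lay between 208000001 and 208500000. Of its 97 fragments, 28.9%, 30.9% and 15.5% were captured in SS13BN 1 to 3, and 35.1%, 23.7% and 26.8% in SS 1 to 3. This was 2.32 ± 0.496 times the library's share (SD, n = 6), and it passed in 5 libraries and missed in SS13BN 3 with an adjusted binomial p of 0.221. Over all chromosomes, 40 windows with at least 50 fragments had a higher mean among 5301. Its captures were spread over the window: 38 fragments were captured in no library and 6 in all 6. Of those 6, the fragments from 208071242 to 208074854 and from 208160162 to 208167072 stood alone. The other 4 formed 2 pairs of direct neighbours. The first pair ran from 208200451 to 208204677, and the second joined a long fragment of 31073 bp, from 208268495 to 208299567, to one that ends at 208303064.

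The second window lay between 159000001 and 159500000, with 148 fragments. Captured shares were 25.7%, 31.8% and 13.5% in SS13BN 1 to 3 and 22.3%, 17.6% and 24.3% in SS 1 to 3, 1.93 ± 0.362 times the library's share (SD, n = 6). It too passed in 5 libraries and missed in SS13BN 3 (adjusted binomial p = 0.285). These 2 windows are the contact windows of SS alone, and each was called in 2 of 3 SS13BN libraries, so they do not set the strains apart. SS13BN 3, where both missed, had the fewest captured fragments. Without it, 6 windows of chromosome 2 were called in SS13BN and both of these were called in both strains. The next windows were those at 41000001, 79000001 and 225500001, with 1.73 ± 0.359, 1.73 ± 0.495 and 1.72 ± 0.316 times the library's share (SD, n = 6). They were called in 3, 2 and 2 libraries.

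At a coarser scale, chromosome 2 had 2 segments that stood above the rest of it in every library. Of 29 segments of 10 Mb, 27 held at least 1000 fragments. The segment from 40000001 to 50000000 was captured at 1.36, 1.33 and 1.28 times the library's share in SS13BN 1 to 3 and at 1.24, 1.21 and 1.26 times in SS 1 to 3. The segment from 200000001 to 210000000 was captured at 1.27, 1.22 and 1.21 times in SS13BN 1 to 3 and at 1.22, 1.18 and 1.27 times in SS 1 to 3. These and the segment from 270000001 to 280000000, at 1.08 ± 0.0571 (SD, n = 6), were above 1 in all 6 libraries. In 16 segments all 6 libraries were below 1, and in 8 the libraries fell on both sides. The lowest segment was that from 180000001 to 190000000, at 0.573, 0.601 and 0.570 in SS13BN 1 to 3 and 0.594, 0.526 and 0.587 in SS 1 to 3. No other segment of at least 1000 fragments had a mean under 0.733. Segments with longer fragments were captured more: over 27 segments, median fragment length and mean relative capture had a Spearman correlation of 0.839, and 0.726 after the expectation was set by fragment length. This is a description across segments of the same 6 libraries, and segments are not replicates. The base composition that sets EcoRI sites was not measured, and the cause of the relation was not tested. With the length expectation the highest and lowest segments stayed at 1.22 ± 0.0528, 1.20 ± 0.0353 and 0.609 ± 0.0288 (SD, n = 6).

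**Figure D3:**
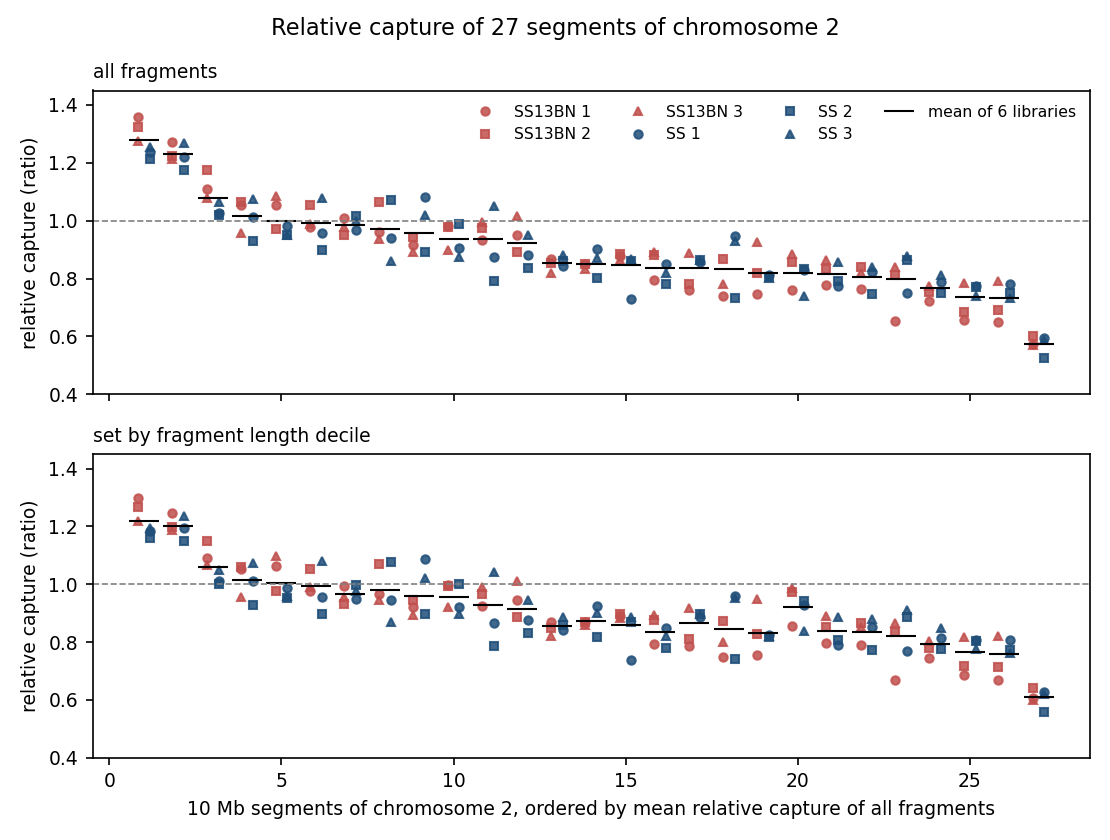
Relative capture (captured share over the library's share outside chromosome 13, y axis) of 27 segments of 10 Mb with at least 1000 fragments, ordered by their mean (x axis), for all fragments and with the expectation set by fragment length decile. Points are libraries and black dashes the mean of 6; the 2 leftmost segments lie above 1 in all libraries and the rightmost one is set apart from the others.

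The high segment that starts at 40000001 borders the longest interval of the tables. Its row, from 21028392 to 40627073, is listed as 1 fragment of 19.6 Mb and was captured in no library, so 2 segments held few or no other fragments. The tables do not say why no cut site is listed inside it. Below the interval there were 7759 fragments and above it 73338. In the 1 Mb just above it, capture was 1.64, 1.8 and 1.31 times the library's share in SS13BN 1 to 3 and 1.29, 1.40 and 1.58 times in SS 1 to 3. In the 1 Mb just below it, capture was 1.05, 0.867 and 0.821 times in SS13BN 1 to 3 and 0.641, 0.756 and 0.908 times in SS 1 to 3. The side above was higher in all 6 libraries. The first 3 Mb of the chromosome were captured at 0.702 ± 0.0351 times the library's share in SS13BN and 0.701 ± 0.0332 times in SS (SD, n = 3 each). The last 3 Mb stood at 0.693 ± 0.0965 times in SS13BN and 0.768 ± 0.0938 times in SS. The fragments of the first 3 Mb were short, with a median of 655.5 bp, and with the length expectation the value there was 0.889 ± 0.0488 (SD, n = 6).

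In the deposited score itself, the most prominent feature of chromosome 2 was a trough. From 178437051 to 182931590, over 4.49 Mb and 1356 fragments, every fragment had a score below -3 in all 6 libraries. Of 198 such low stretches on 20 chromosomes it was the longest by span and the 2nd by number of fragments. The lowest score inside it was -6.25, -8.70 and -6.25 in SS13BN 1 to 3 and -6.98, -6.26 and -6.90 in SS 1 to 3. Captured fragments numbered 27, 38 and 24 in SS13BN 1 to 3 and 34, 26 and 26 in SS 1 to 3. This was 0.188 ± 0.0234 times the library's share in SS13BN and 0.185 ± 0.0216 times in SS (SD, n = 3 each). The libraries thus lay close together, although they differed in the number of captured fragments. The trough was chosen by these scores, so the values are a description. Short fragments are common in it, with 34.1% under 500 bp and a median of 1320 bp. Among its 598 fragments of 1 to 8 kb, capture was 0.262 ± 0.0360 times the share of such fragments in the library (SD, n = 6). Within it, a run of 225 fragments from 180869441 to 180920795, with a median length of 93 bp, was captured in no library.

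**Figure D4:**
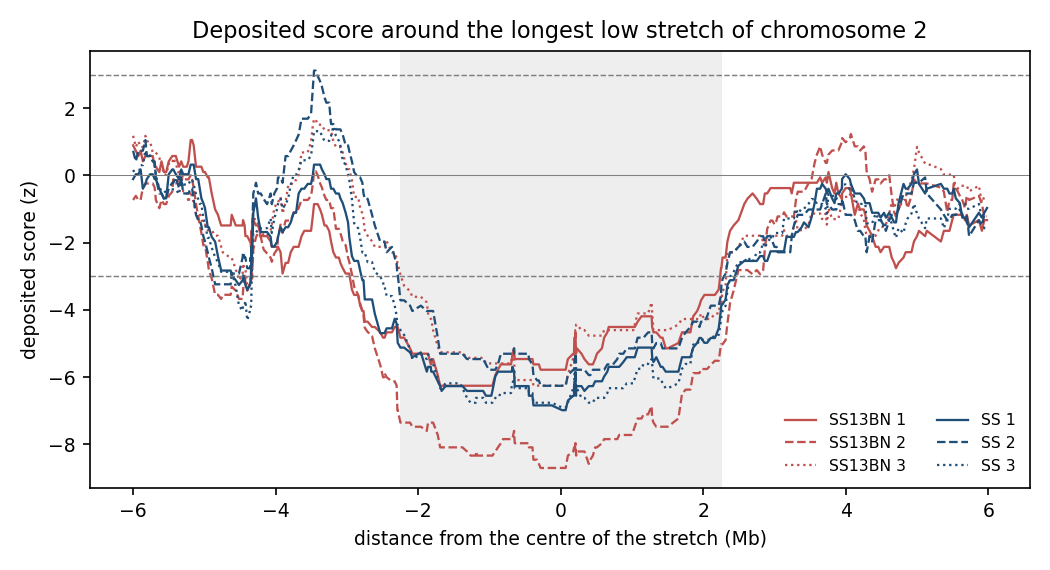
Deposited score (z, y axis) of 1 in 10 fragments against the distance from the centre of the longest low stretch of chromosome 2 (Mb, x axis), 1 line per library. The grey band is the stretch of 4.49 Mb where all 6 libraries lie below -3, and dashed lines mark scores of 3 and -3; the lines fall to between -6.25 and -8.70 inside the band.

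Windows below the library's share in all 6 libraries were more numerous than contact windows. By the lower tail of the same binomial test, 14 of 534 windows of chromosome 2 (2.62%) were low-contact windows in all 6, where the background was 1.89%. Of these, 6 overlapped the trough. The share of low-contact windows per library was above that of the other chromosomes in 5 of 6 libraries, by 1.46 ± 1.15 percentage points (SD, n = 6; exact permutation p = 0.0625, adjusted 0.0625), and missed the threshold. With the expectation set by fragment length, 9 windows remained, with a background of 1.37%, and among fragments of 1 to 8 kb alone, an alternative with fewer fragments per window, 2 did. With each chromosome's own share as the expectation, which removes the low level of chromosome 2, 9 windows (1.69%) were called. The background there was 1.78%, so chromosome 2 was not above it. The emptiest window, from 134500001 to 135000000, had 1 capture among 172 fragments, in SS 2. A count of 0 of 172 in the other libraries allows a share of up to 1.74%. Its fragments were of ordinary length, with a median of 1684 bp. A run of 180 fragments from 134229179 to 134731841, which reaches into it, was captured in no library. The windows at 178500001, 232500001, 216500001 and 253000001 followed, at 0.0783, 0.0864, 0.100 and 0.123 times the library's share, with 5, 12, 21 and 12 captures over all 6 libraries. The window at 216500001 consisted of short fragments, with a median of 344.5 bp. The others had medians from 1854.5 to 2171.5 bp.

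A score below -3 in all 6 libraries was found on chromosome 2 in 19 stretches with 2019 fragments. This was 2.49% of its fragments, against 4.15% of the fragments elsewhere, and ranked 12th of 20 from the highest. The remaining long low stretches were shorter than the trough by an order of magnitude. One ran from 149602415 to 149907450, with lowest scores of -3.55, -5.02 and -3.94 in SS13BN 1 to 3 and -4.55, -4.83 and -4.16 in SS 1 to 3. Another ran from 216581812 to 216838514, with -4.82, -7.23 and -4.77 in SS13BN 1 to 3 and -6.55, -5.30 and -6.18 in SS 1 to 3. The fourth, from 284862493 to 285068071, lies at the end of the chromosome. There the deposited score counts places beyond the last fragment as not captured, which lowers it, and the stretch is absent when only existing fragments are counted, an alternative added after the data were seen.

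High scores on chromosome 2 gathered in few places. A score above 3 in all 6 libraries was found in 30 stretches with 606 fragments, 0.747% of the chromosome, against 4.26% of the fragments elsewhere. By this share chromosome 2 ranked 18th of 20. Stretches less than 2 Mb apart formed 5 places. The largest, from 203227476 to 207875900, held 16 of the 30 stretches in 4.65 Mb. Its 1176 fragments were captured at 1.33, 1.37 and 1.29 times the library's share in SS13BN 1 to 3, and at 1.29, 1.32 and 1.40 times in SS 1 to 3. Over it, capture among fragments of 1 to 8 kb was 1.33 ± 0.0747 times (SD, n = 6), so the height of the place was about the same without short and long fragments. A second place, from 158649364 to 159988069, held 7 stretches in 1.34 Mb, at 1.46 ± 0.116 times the library's share in SS13BN and 1.36 ± 0.130 times in SS (SD, n = 3 each). Another, from 48245631 to 48811482, held 5, at 1.21 ± 0.118 in SS13BN and 1.31 ± 0.380 in SS. The places at 226367086 and 57680284 held 1 stretch each.

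The longest single high stretches ran from 205940424 to 206296720 and from 226367086 to 226696446. In the first, the highest score was 4.55, 7.0 and 3.98 in SS13BN 1 to 3 and 4.62, 3.75 and 5.64 in SS 1 to 3. In the second it was 4.07, 4.42 and 4.31 in SS13BN 1 to 3 and 4.19, 6.29 and 4.20 in SS 1 to 3. A score describes 501 fragments around its row, not the row. The 67 fragments of the second stretch were themselves captured at 0.997 ± 0.212 times the library's share (SD, n = 6), while the 79 of the first reached 1.64 ± 0.488 times. The stretch from 159225672 to 159444510 had the densest capture of its own fragments, 2.23 ± 0.463 times in SS13BN and 2.22 ± 0.328 times in SS (SD, n = 3 each), and 8 of its 81 fragments were captured in all 6 libraries. The other named stretches started at 48294215, 203764537 and 207110230, with highest scores from 3.47 to 6.75 over the libraries.

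**Figure D5:**
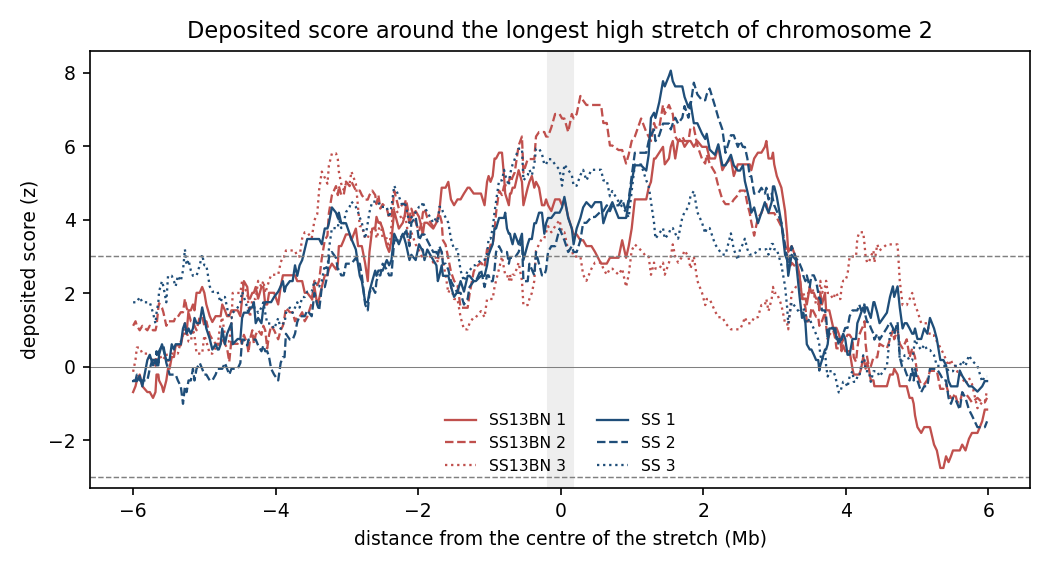
Deposited score (z, y axis) of 1 in 10 fragments against the distance from the centre of the longest high stretch of chromosome 2 (Mb, x axis), 1 line per library. The narrow grey band is that stretch and dashed lines mark scores of 3 and -3; all lines are raised over several Mb, and they are not highest at the same points.

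Relative to counting error, captured shares varied less among the windows of chromosome 2 than among those of most chromosomes. The SD of captured shares among its windows was 1.77, 1.93 and 1.47 times the counting SD in SS13BN 1 to 3 and 1.67, 1.55 and 1.67 times in SS 1 to 3. The median of the other chromosomes was 1.97, 2.18 and 1.63 in SS13BN 1 to 3 and 1.95, 1.88 and 1.76 in SS 1 to 3. Chromosome 2 was lower in all 6 libraries, by -0.218 ± 0.0878 (SD, n = 6; exact permutation p = 0.031, adjusted 0.0365). Averaged over the libraries, 8.62% ± 2.72 (SD, n = 6) of its fragments had a score above 3 and 6.87% ± 2.58 a score below -3. On the other chromosomes these were 12.6% ± 2.71 and 11.0% ± 2.67. Both differences were negative in all 6 libraries, with an exact permutation p of 0.031 (adjusted 0.0365) each. Scores are relative to the chromosome's own share, which is not the level compared above. The counting SD, of the window shares as of the score, depends on that share, which was lower on chromosome 2. Its part in the differences of window spread and of scores was not tested. Nearby windows resembled each other. The mean relative capture of windows 0.5 Mb apart had a Pearson correlation of 0.430 over 529 pairs, which was 0.237 at 2 Mb and 0.0805 at 5 Mb.

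The strains did not differ detectably on chromosome 2. For the chromosome as a whole, the log2 difference (SS13BN minus SS) of captured fragments scaled to the library total was 0.02, with a 95% half-width of 0.05 (limma over 20 chromosomes, adjusted p = 0.953). Of its 530 windows of 500 kb tested with limma, 0 passed an adjusted p of 0.05, where the background was 0% of 5296 windows. An unadjusted limma p under 0.05 was found in 23 (4.34%), with a background of 3.02%. The libraries of the strains did not overlap in 43 windows, 27 higher and 16 lower in SS13BN, which is 8.11% of those tested, with a background of 7.8%. In a window, the 95% interval of the log2 difference reached 0.53 to either side at the median. Of 28 segments of 10 Mb, 0 passed with limma, with a background of 0%, and 0 had an unadjusted p under 0.05, with a background of 0.355%. The libraries did not overlap in 2 segments (7.14%), both higher in SS13BN, with a background of 2.48%. These were the segments at 40000001, with a log2 difference of 0.10 (SE 0.07; limma adjusted p = 0.973), and at 270000001. The median half-width over segments was 0.15, without adjustment for the number of segments. Smaller differences were not detectable, and with the adjusted p used for calls larger ones could be missed too.

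The windows with the smallest p show how large such differences were. The window from 111500001 to 112000000 had relative capture of 1.54, 1.08 and 1.18 in SS13BN 1 to 3 and 0.593, 0.854 and 0.923 in SS 1 to 3, and the strains did not overlap. On the log2 scale this came to 0.66 (SE 0.23), with a limma adjusted p of 0.999. The window from 117500001 to 118000000 had 0.298, 0.475 and 0.338 in SS13BN 1 to 3 and 0.815, 0.474 and 0.995 in SS 1 to 3, a log2 difference of -0.91 (SE 0.33; same adjusted p), and the strains overlapped. The window from 49000001 to 49500000 differed by 0.58 (SE 0.23; same adjusted p). Among segments, the smallest p belonged to those at 270000001, 70000001 and 140000001. The first had 1.11, 1.17 and 1.08 in SS13BN 1 to 3 and 1.03, 1.02 and 1.06 in SS 1 to 3, a log2 difference of 0.11 (SE 0.07; limma adjusted p = 0.973). The others differed by 0.11 (SE 0.07) and -0.12 (SE 0.07). Over the trough and over the place from 203227476 to 207875900, the libraries of the strains overlapped.

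Libraries of one strain resembled each other no more than libraries of different strains. Over 531 windows of chromosome 2 with at least 50 fragments, Spearman correlations of relative capture ran from 0.548 to 0.679 over the 15 pairs. The mean was 0.602 for the 6 pairs within a strain, 0.623 for the 3 pairs of different strains with the same replicate number and 0.629 for the other 6. These correlations are across windows of the same chromosome, which share fragment number and length, and windows are not replicates.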

How the data were processed

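The authors deposited 1 table per library with a z-score for each EcoRI fragment. The submitters' processing notes name CASAVA 1.8 and the genome build rn5. The aligner is not given in the sources used here, and the form of the score was worked out from its values. Fragment positions are those of the tables and can be 1 base off what a browser shows.

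From the deposited scores, captured states were solved per chromosome (501-fragment windows, places beyond an end counted as not captured). The solver and the limma step were tested on simulated data. Fragments were assigned to windows by midpoint. Captured fragments, scaled to the mean library total outside chromosome 13, were compared between strains with limma 3.58.1 in R 4.3.3 (intensity trend, log2(value + 1), windows with a mean of at least 1, Benjamini-Hochberg over all windows, threshold 0.05). On this scale, changes in windows with few captures come out too small. Comparisons of chromosome 2 with the rest used exact sign-flip tests over 6 libraries. Other steps ran in Python 3.11.15 with scipy 1.17.1, numpy 2.4.6 and pandas 2.3.3, and figures were drawn with matplotlib 3.10.9.

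Deviations from the strain means over 5301 windows correlated at 0.171, 0.171 and 0.119 between libraries of replicate numbers 1, 2 and 3. Between libraries of different strains and numbers they ran from -0.171 to -0.0256. Deviations from a mean of 3 libraries are tied to each other, so these correlations are not independent. The numbers were taken as a possible pairing, from the data and not from the labels. Over chromosome 2 alone the correlations of replicate numbers 1, 2 and 3 were 0.0195, 0.100 and -0.0713. The main strain tests did not use this pairing, which entered as a replicate block in an alternative run only.

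Named regions are the 5 highest and 5 lowest windows with at least 50 fragments, contact windows, the smallest p values, the longest stretches of score beyond 3 and the chromosome ends. The members and rules were chosen with earlier results of these data known.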

Additional observations from a re-analysis of the deposited data

How the results depend on the processing

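Chromosome 2 stayed below the other chromosomes in all libraries under every way of counting: the mean ratio was 0.895 with fragment length, 0.898 with fragments of 1 to 8 kb, 0.883 without chromosome ends, 0.943 per megabase and 0.862 without chromosome X. With single libraries left out it ran from 0.875 to 0.884, and the exact permutation p was 0.0625, the smallest that 5 libraries allow. The strain tests called 0 windows and 0 segments of chromosome 2 in each alternative run, including the replicate block, which changed no call on the chromosome (log2 difference 0.02, limma adjusted p = 0.933, for the chromosome as a whole). With single libraries left out, the chromosome's log2 difference ran from 0.00 to 0.03.

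Counts of called windows moved with the rule, and the cause was not tested. Contact windows in SS13BN numbered 1 with each chromosome's own share, 1 with 1 Mb windows and 0 to 6 with single libraries left out. Contact windows in SS numbered 1 at an adjusted p under 0.01, 1 with 250 kb windows, 1 with 1 Mb windows, 0 with fragments of 1 to 8 kb and 2 to 4 with single libraries left out. Contact windows in both strains numbered 0 to 2 with single libraries left out; leaving out SS13BN 3, which loosens the rule, gave the 6 and the 2, and leaving out SS 2 gave the 4. Low-contact windows in both strains numbered 9 with fragment length, 9 with each chromosome's own share, 8 at an adjusted p under 0.01, 8 with 250 kb windows and 2 with fragments of 1 to 8 kb. High stretches numbered 51 at a score beyond 2 and 1 beyond 4. Low stretches numbered 6 beyond 4 and 18 with ends scored on existing fragments. The settings with fragments of 1 to 8 kb for windows and with rescored ends were chosen after seeing the data. Over all chromosomes 446, 645 and 174 contact windows passed in SS13BN 1 to 3 and 472, 365 and 286 in SS 1 to 3, where 75366, 132426 and 66610 fragments were captured in SS13BN 1 to 3 and 93838, 75942 and 90358 in SS 1 to 3. The numbers of windows did not follow the captures in every library: SS 3 had more captures than SS13BN 1 and SS 2, and fewer windows.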

Other observations

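Some fragment lengths recur on chromosome 2 and elsewhere, and such fragments were seldom captured on either. The most frequent single length was 83 bp, with 1208 fragments, of which 85.7% were captured in no library. On the other chromosomes 85.1% of 8045 fragments of this length were captured in none. Capture at 83 bp was near that of short fragments in general. It averaged 3.41% on chromosome 2 and 3.47% elsewhere, against 3.50% and 3.75% for all fragments of up to 100 bp. Of the 517 fragments of 213 bp on chromosome 2, 93.2% were captured in no library, against 92.0% of 3199 elsewhere. Their captured shares averaged 1.48% ± 0.499 on chromosome 2 and 1.84% ± 0.203 on the other chromosomes (SD, n = 6 each). This was below all fragments over 100 and up to 500 bp, which averaged 6.31% on chromosome 2 and 7.19% elsewhere.

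Long runs of neighbouring fragments captured in no library were of different kinds. Those from 1290966 to 1374111 and from 545876 to 588225, near the start of the chromosome, had 184 and 171 fragments with a median of 93 bp each, in 83.1 kb and 42.4 kb. The run from 232534942 to 232980848 had 155 fragments with a median of 1874 bp, in 446 kb.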
